A study of Homo sapiens with 16 samples.

Results

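TRIM28 was mapped by chromatin immunoprecipitation sequencing (ChIP-seq) in HCT116, an established and near-diploid human colon cancer cell line, and the library of unmodified cells was set beside the library of shCtrl cells. Unmodified cells carry no shRNA in their label. The shCtrl cells carry the control shRNA, read from CTR in the title and from the series' design text, and whether they were a pool or a single clone is not given in the sources used here. Neither group received an shRNA against ARID1A, and both were kept in the same medium. The members are all TRIM28 peaks of these 2 libraries on chromosomes 1 to 22 and X. The authors called peaks of each library against input chromatin and against an IgG precipitation, which gives 4 lists with 435536 peaks, of 2616578 in the 20 lists of 10 libraries. Each side has 1 library, so no difference below has a replicate check, no test between the cells was possible, and intervals cover counting error only.

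TRIM28, also called KAP1 or TIF1β, is a corepressor without DNA binding of its own. KRAB zinc finger proteins bring it to chosen sequences, where it recruits SETDB1, an enzyme that methylates lysine 9 of histone H3, together with HP1 proteins and the NuRD complex. Its best known sites in human cells are the 3' ends of zinc finger genes, endogenous retroviruses and the methylated allele of imprinted control regions. Such places carry H3K9me3, the mark of compact and silent heterochromatin.

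Few start sites carried a TRIM28 peak. Of 34960 windows of 300 bases around RefSeq start sites (250 bases before and 50 after), an input peak lay on 269 in unmodified cells (0.769%) and on 283 in shCtrl cells (0.809%). Against IgG the numbers were 644 (1.84%) and 1259 (3.6%). Input peaks of both libraries lay on 7 of these windows, which is 2.60% of the windows of unmodified and 2.47% of those of shCtrl cells. These 7 belonged to FAM230E, CLASP2, RTN4, CRB1, LRRTM3, INPP4B and LINC01555. A window of FAM230E, a long noncoding RNA gene of a segmental duplication on chromosome 22, was the only one with a peak in all 4 lists. The window of TMCC2, a gene of a transmembrane protein, was the only one under a shCtrl input peak with a q of at most 0.05.

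The sequences of the 4 windows with the longest stretch inside input peaks of both libraries are shown so that the kind of start site can be seen, together with the TMCC2 window. They come from RefSeq (GRCh38.p14) and run 5' to 3' on the gene's strand. FAM230E lies at chr22:18733685-18733984 on the plus strand, CLASP2 at chr3:33659058-33659357 on the minus strand, RTN4 at chr2:55010223-55010522 on the minus strand and CRB1 at chr1:197268002-197268301 on the plus strand. TMCC2 lies at chr1:205255952-205256251 on the plus strand. Capitals mark the bases inside an input peak of both libraries, and in TMCC2 those inside the shCtrl input peak.
FAM230E: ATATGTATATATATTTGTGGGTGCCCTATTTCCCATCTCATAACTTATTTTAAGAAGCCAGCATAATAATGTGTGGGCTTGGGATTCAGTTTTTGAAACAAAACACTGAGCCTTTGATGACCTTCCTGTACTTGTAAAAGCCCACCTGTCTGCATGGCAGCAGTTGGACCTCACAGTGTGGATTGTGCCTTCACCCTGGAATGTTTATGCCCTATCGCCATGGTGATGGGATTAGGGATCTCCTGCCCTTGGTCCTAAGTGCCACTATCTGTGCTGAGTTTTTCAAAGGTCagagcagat
CLASP2: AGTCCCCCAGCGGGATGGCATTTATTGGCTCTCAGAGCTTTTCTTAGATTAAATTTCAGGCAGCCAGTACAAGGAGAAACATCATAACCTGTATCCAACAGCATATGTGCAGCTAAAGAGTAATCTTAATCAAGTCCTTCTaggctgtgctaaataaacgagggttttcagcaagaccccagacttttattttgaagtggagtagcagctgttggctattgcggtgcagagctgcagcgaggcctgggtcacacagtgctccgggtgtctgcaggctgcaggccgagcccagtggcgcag
RTN4: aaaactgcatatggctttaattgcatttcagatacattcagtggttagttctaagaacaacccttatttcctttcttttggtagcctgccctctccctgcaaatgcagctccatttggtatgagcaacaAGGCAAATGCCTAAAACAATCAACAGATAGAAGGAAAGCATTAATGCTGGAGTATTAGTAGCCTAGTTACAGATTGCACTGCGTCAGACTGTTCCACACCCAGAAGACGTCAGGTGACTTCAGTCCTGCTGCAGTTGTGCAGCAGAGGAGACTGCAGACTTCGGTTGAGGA
CRB1: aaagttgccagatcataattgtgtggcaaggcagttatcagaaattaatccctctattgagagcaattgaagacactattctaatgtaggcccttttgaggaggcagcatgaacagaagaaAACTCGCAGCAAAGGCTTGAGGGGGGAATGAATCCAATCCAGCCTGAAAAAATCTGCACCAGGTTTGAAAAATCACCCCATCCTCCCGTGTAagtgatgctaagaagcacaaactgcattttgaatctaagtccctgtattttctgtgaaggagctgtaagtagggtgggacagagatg
TMCC2: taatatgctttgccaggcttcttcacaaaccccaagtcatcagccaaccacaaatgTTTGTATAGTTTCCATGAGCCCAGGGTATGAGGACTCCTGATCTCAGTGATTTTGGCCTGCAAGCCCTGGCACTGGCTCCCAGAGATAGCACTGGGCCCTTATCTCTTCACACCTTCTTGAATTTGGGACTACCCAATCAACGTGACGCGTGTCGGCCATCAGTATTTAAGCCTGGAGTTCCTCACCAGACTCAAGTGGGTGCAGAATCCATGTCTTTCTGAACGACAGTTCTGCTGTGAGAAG

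CLASP2 encodes a microtubule-binding protein, RTN4 the membrane protein Nogo and CRB1 a polarity protein of the retina. The shared peaks covered 291 bases of the FAM230E window, 171 of the RTN4 window, 141 of the CLASP2 window and 92 of the CRB1 window. The 7 shared windows were poor in CpG. The observed over expected CpG ratio was 0.07 in FAM230E, which holds 1 CG, and 0.38 in CLASP2, the highest of the 7, against a median of 0.58 over all windows. The windows under input peaks differed between the libraries in this respect. A ratio of at least 0.6 was found in 44.6% of the windows of unmodified cells, in 10.9% of those of shCtrl cells and in 48.9% of all windows. Their median GC content was 52.0% and 45.3%, against 58.7% over all windows.

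The shCtrl list was the longer one, and its peaks were narrower and rested on fewer fragments. Against input, 32927 peaks were listed in unmodified cells and 70447 in shCtrl cells, a log2 ratio of 1.10. Against IgG there were 68047 and 264115, a log2 ratio of 1.96. The input lists covered 11.3 Mb in unmodified and 18.1 Mb in shCtrl cells, a log2 ratio of 0.68. Among peaks with a q of at most 0.05, called strong here, the order turned against input, with 67 in unmodified and 25 in shCtrl cells. Against IgG it did not, with 396 and 598. Nearly all other peaks had a q of 1, namely 99.3% of the unmodified and 99.9% of the shCtrl input list. The depth behind a peak was small. The median summit against input held 10 fragments in unmodified and 6 in shCtrl cells, over a most common background of 2.91 and 1.16 fragments at a position, which is 11.5 and 5.74 background fragments per kb. Median fold enrichment against input, the authors' ratio of the summit to its local background, was 2.43 in unmodified and 2.60 in shCtrl cells.

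The median input peak was 310 bp wide in unmodified and 218 bp in shCtrl cells, 92 bp apart. The narrowest peak was 254 bp in one and 202 bp in the other, with either control, and 26.3% and 43.1% of the input peaks had exactly this width. The median input width was 1.22 and 1.08 times this narrowest width, which was taken here as the fragment length for the background per kb. Widths of 500 bp or more were found in 8.43% of the unmodified and 1.8% of the shCtrl input peaks. The width thus followed the library and not the control, since the IgG lists had medians of 316 bp and 227 bp. The parts of the narrowest width and of the depth in the difference of 92 bp were not tested. The widest unmodified peak, 2517 bp at chr4:441691-444207, lay in ZNF721, a zinc finger gene, with a fold of 3.60. The widest shCtrl peak, 1217 bp at chr8:109274532-109275748, lay in NUDCD1 and overlapped an unmodified peak. The shCtrl peak next in width, 1179 bp, lay in ZBTB20, a gene of a BTB zinc finger repressor, and also overlapped an unmodified peak.

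**Figure D1:**
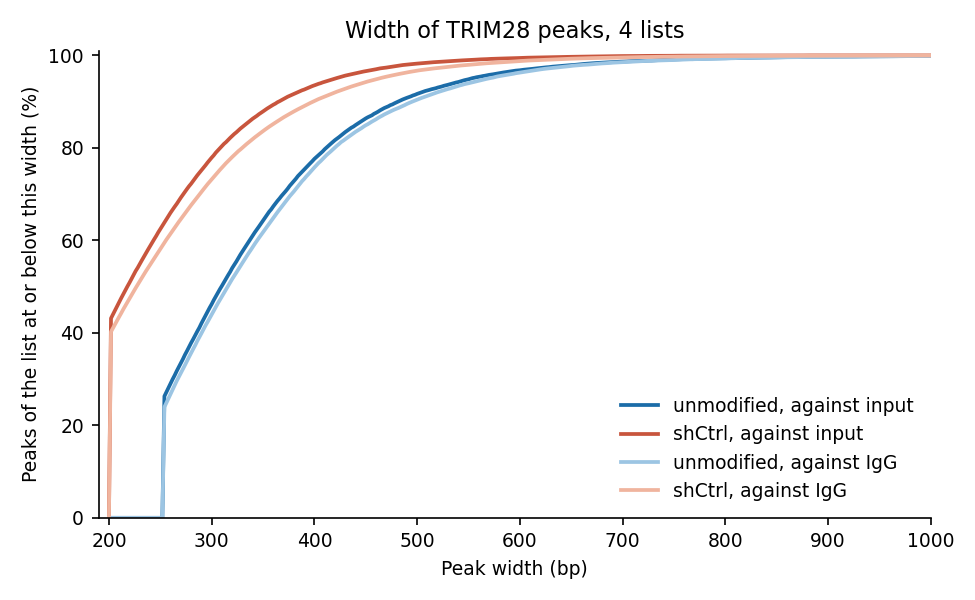
Share of the peaks of each TRIM28 list (vertical axis, percent) at or below a given width (horizontal axis, bp), 1 line per list. The lines of shCtrl cells start at 202 bp and those of unmodified cells at 254 bp, and the lines of the 2 controls lie close together within each library.

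The 2 libraries listed few of the same places. Of the unmodified input peaks, 1541 (4.68%, exact 95% interval 4.45% to 4.91%) overlapped a shCtrl input peak by at least 1 bp. Of the shCtrl input peaks, 1557 (2.21%, 2.10% to 2.32%) overlapped an unmodified one. Within a library the choice of control mattered less: 38.4% of the unmodified and 71.6% of the shCtrl input peaks lay on a peak of the same library against IgG. The share changed with the rule. With summits allowed to lie up to 1000 bp apart it was 11.8% of the unmodified and 5.70% of the shCtrl peaks, and among the 10000 peaks of each list with the highest −log10 p it was 1.02% and 1.04%. The share was higher among wider peaks, which under a rule of 1 bp meet another peak more often by construction. Of the 8232 narrowest unmodified peaks 3.45% and of the 8232 widest 7.06% were shared, and of the 17612 narrowest and 17612 widest shCtrl peaks 1.46% and 3.21%. By fold the shares lay closer, at 4.29% of the 8232 lowest and 5.36% of the 8232 highest unmodified peaks.

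The other libraries of the series give a scale for this overlap. Lists differ in length, so the share was also divided by the Mb that the other list covers. The unmodified TRIM28 peaks were shared with shCtrl TRIM28 at 0.258% per Mb, with unmodified ARID1A at 0.417% and with unmodified H3K9me3 at 0.754%. The shCtrl TRIM28 peaks were shared with unmodified TRIM28 at 0.195% per Mb, with shCtrl ARID1A at 0.257%, with shCtrl SETDB1 at 0.248% and with shCtrl H3K9me3 at 0.279%. Each TRIM28 input list thus shared more per Mb with the lists of other antibodies in the same cells than with TRIM28 in the other cells. Lists of other antibodies in other cells also reached above the TRIM28 values: 0.286% for unmodified TRIM28 with shCtrl SETDB1, 0.266% for unmodified TRIM28 with shARID1A H3K9me3 and 0.236% for shCtrl TRIM28 with unmodified H3K9me3. Libraries of the same cells were assumed to have the same input, so the part of that input and the part of the cells cannot be told apart.

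Peak counts in 100 kb bins were correlated between the 2 libraries, a measure that has no common scale with the overlap of single peaks. Over 29049 bins with a peak of any of the 20 lists, the Spearman correlation of the unmodified and shCtrl input counts was 0.54, given as a description with no test. The points share the 2 libraries, their depth and their controls, and neighbouring bins are not independent. The shCtrl TRIM28 counts correlated at 0.70 with shCtrl H3K9me3 and at 0.69 with shCtrl ARID1A. The unmodified TRIM28 counts correlated at 0.53 with shCtrl H3K9me3 and 0.51 with shCtrl ARID1A, close to their value with shCtrl TRIM28. Within unmodified cells they were lower, at 0.41 with ARID1A and 0.38 with H3K9me3. By Pearson correlation the unmodified TRIM28 counts were at 0.525 with unmodified H3K9me3 and 0.4691 with unmodified ARID1A. With shCtrl H3K9me3, ARID1A and TRIM28 they were at 0.5385, 0.5167 and 0.5333. The size of the gap for H3K9me3 thus depended on the measure. The Spearman correlation of the 2 TRIM28 lists was 0.88 in 1 Mb bins, and 0.43 against IgG in 100 kb bins.

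**Figure D2:**
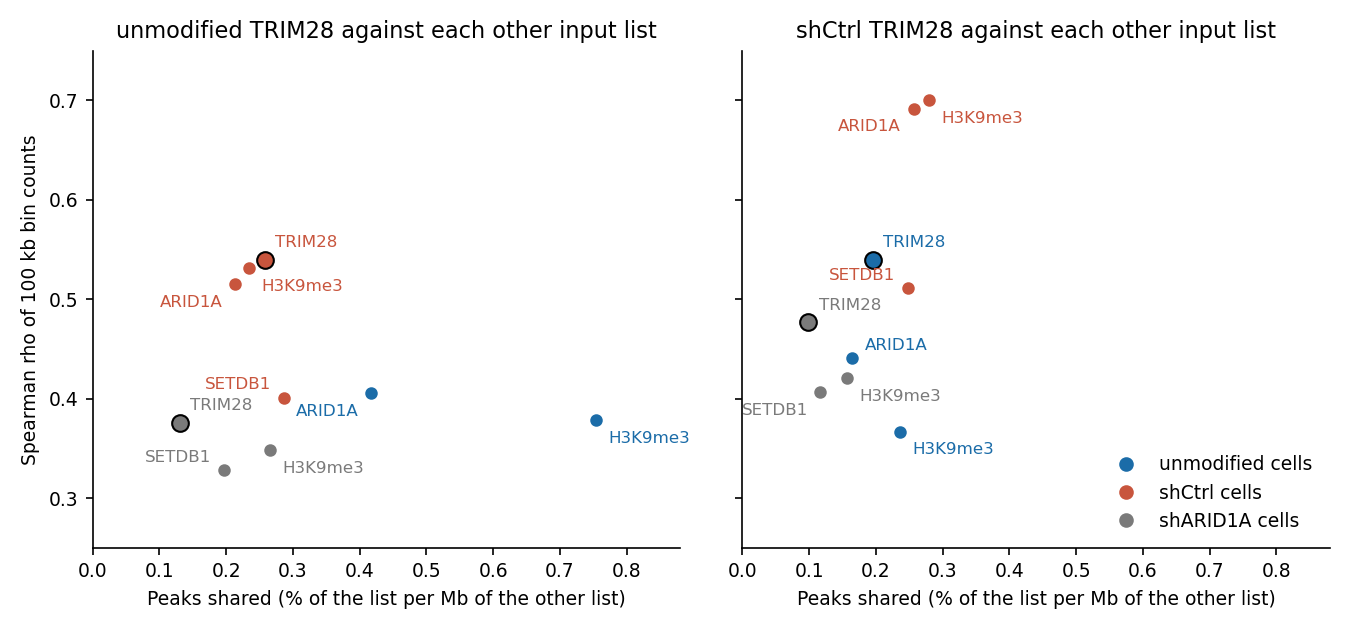
Each point is 1 other input list. The horizontal axis gives the share of TRIM28 peaks found in it (percent per Mb that it covers), the vertical axis the Spearman correlation of 100 kb bin counts, colours the cells, and black rings TRIM28. In the right panel the shCtrl ARID1A and H3K9me3 lists stand highest, at 0.69 and 0.70, above unmodified TRIM28 at 0.54.

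Of the 32927 unmodified input peaks, 380 (1.15%, 1.04% to 1.27%) had a partner in all 3 other TRIM28 lists. They were wider than the list as a whole, with a median of 364 bp against 310 bp, which the rule of 1 bp favours by construction. Their median fold was 2.43, as in the whole list. A protein-coding or lncRNA gene, extended by 1000 bp, held 55.8% of them, and 59.8% of all unmodified input peaks. Of the 380, 7 were strong in unmodified cells and 7 lay on a strong shCtrl peak. Ranked by the lower of their 2 input folds, the first 2 lay outside genes, at chr14:17721010-17721316 (3.62 in unmodified and 4.61 in shCtrl cells) and chr21:12780040-12780348 (5.61 and 3.60), both in centromeric stretches without genes.

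The first 12 genes by this rank were LPA, OR2A4, FAM230E, CASP4, LOC105374060, DLG1, AUH, TANC2, SPECC1L, TGFBR2, PIGK and LOC124909369. LPA encodes apolipoprotein(a), a liver plasma protein. Its peak lay at chr6:160632593-160633334 in unmodified cells, with a fold of 3.46 against input and 2.54 against IgG. The shCtrl peak at chr6:160633016-160633494 had a fold of 3.95 and 3.53. DLG1, a scaffold protein of cell junctions, held a peak at chr3:197242811-197243407 with input folds of 3.13 in unmodified and 4.30 in shCtrl cells. CASP4, the inflammatory caspase that senses bacterial lipopolysaccharide, held one at chr11:104968118-104968489 with folds of 3.13 and 3.60. TGFBR2, the type II TGF-β receptor, held one at chr3:30683000-30683586 with folds of 3.37 and 2.98. Of the 12, the peak in FAM230E alone was strong in unmodified cells, and it alone lay on the gene's start-site window.

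Most of the higher peaks were listed in 1 library only, as were most peaks of the whole lists. Of all unmodified input peaks 8.60% lay on a shCtrl peak against IgG and 4.68% on one against input, and of all shCtrl input peaks 2.17% and 2.21% lay on an unmodified one. Of the 10000 unmodified input peaks with the highest −log10 p, 4688 were also in the IgG list of that library, and 4109 of these (87.7%, 86.7% to 88.6%) were in neither shCtrl list. For shCtrl, 8087 of 10000 were in both of its lists and 7735 of these (95.6%, 95.2% to 96.1%) were in neither unmodified list. In unmodified cells the 12 genes with the highest fold of this kind were CPEB3, CEP112, AP1S3, CDH13, SORCS3, LOC124902869, STXBP5-AS1, ERICH1, FANCC, LINC01337, NCOA2 and RSPH3. The peak in CPEB3, a gene of a translation regulator, had a fold of 4.10 at chr10:92180032-92180349. The one in CDH13, a cadherin gene, had a fold of 3.90, and the one in FANCC, a Fanconi anaemia gene of DNA repair, 3.84. None of these 12 was strong.

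In shCtrl cells the 12 genes were LOC105376360, PIP4P2, TMCC2, TNIK, KIAA0319L, BRINP3, GPHN, ARID1B, PHRF1, LOC105374338, NECAB1 and LOC105375751. Their input folds ran from 4.88 to 5.71, and those of the 12 unmodified genes from 3.62 to 4.10. The peak in TNIK, a kinase that acts with TCF7L2 in WNT signalling, had a fold of 5.17 at chr3:171262582-171263132. The peak in ARID1B, the SWI/SNF subunit that can take the place of ARID1A, had a fold of 5.02 against input and 4.08 against IgG at chr6:156864835-156865207, and it was not strong. Of these 12 genes, 5 had a strong peak: LOC105376360, PIP4P2, TMCC2, TNIK and PHRF1.

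Strong peaks stood at different kinds of places in the 2 libraries. Of the 67 strong unmodified input peaks, 56 (83.6%, 72.5% to 91.5%) lay in the 27 stretches of at least 1.5 Mb that hold no annotated gene, which sit at or beside centromeres and on the short arms of acrocentric chromosomes. Of the 25 strong shCtrl peaks, 6 (24%, 9.36% to 45.1%) lay there. The strong unmodified peaks in these stretches were spread over 17 chromosomes, and the shCtrl ones all sat in the stretch of chromosome 17. Over the whole lists the stretches, 179.9 Mb in all, held 788 unmodified input peaks (2.39%) and 299 shCtrl ones (0.424%). Against IgG they held 4.45% and 1.62% of the peaks, and 86.9% and 41.6% of the strong ones. Higher shares in unmodified than in shCtrl cells were thus listed with both controls. Among other input lists the stretches held 2.86% of the peaks for unmodified H3K9me3, 0.260% for unmodified ARID1A and 2.22% for shARID1A TRIM28. In the other shCtrl input lists they held 0.0597% for ARID1A, 0.159% for H3K9me3 and 0.116% for SETDB1. A low share was thus not particular to TRIM28 among the shCtrl lists. Reads of such repeats map to many places, and the part of multiple mapping was not tested.

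Of the 67 and 25 strong peaks, 4 of each overlapped a strong peak of the other library, all in the gene-free stretch of chromosome 17. One of them lay at chr17:25920098-25920362 in unmodified (fold 2.34) and chr17:25920107-25920339 in shCtrl cells (2.85). Outside the stretches, 11 strong unmodified peaks remained. Genes held 6 of them: ZNF180 (fold 5.01), FAM230E (4.11), CCDC200 (3.64), PTPRN2 (3.58), EXD3 (3.13) and USP17L24 (3.11), with 2 of these, CCDC200 and USP17L24, reached only through the extension of 1000 bp. The ZNF180 peak, 1485 bp wide at chr19:44476176-44477660, was the only strong input peak of either library in a zinc finger gene. It was also in the unmodified list against IgG and overlapped a shCtrl peak against IgG, but none against input. A further 4 strong unmodified peaks lay at chromosome 3 between 90959348 and 91242066, beside the gene-free stretch there.

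The 19 strong shCtrl peaks outside the stretches included 10 in genes: LOC105376360 (fold 5.71), PIP4P2 (5.54), TMCC2 (5.34), TNIK (5.17), PHRF1 (4.98), DCBLD2 (4.98), PTPRN2 (4.21), DUX4 with 2 peaks (2.54 and 2.52) and FAM230C (2.18). PTPRN2, a gene of a phosphatase-like protein of secretory vesicles near the end of chromosome 7, was the only gene with a strong input peak in both libraries, at chr7:158146992-158147267 in unmodified and chr7:158148129-158148641 in shCtrl cells. The 2 peaks did not overlap each other. The shCtrl peak did overlap unmodified peaks against input and against IgG, and the unmodified peak overlapped a shCtrl peak against IgG only. DUX4 lies in the D4Z4 repeat at the end of chromosome 4, and FAM230C, FAM230E and USP17L24 belong to families of near-identical copies, so the gene that gave these reads is uncertain. A cluster of 4 further strong shCtrl peaks lay at chromosome 18 between 108025 and 110736, with folds of 2.05 to 3.31.

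Chromosome shares followed the control more than the cells. To turn the chromosome shares of the unmodified input list into those of the shCtrl input list, 4.11% of the peaks would have to change chromosome. Between the 2 IgG lists it was 3.37%, but between the input and the IgG list it was 12.4% in unmodified and 11.7% in shCtrl cells. Chromosome 8 showed this most plainly. It held 12.1% of the unmodified and 9.48% of the shCtrl peaks against input, and 5.25% and 5.39% against IgG. Chromosome 19, the chromosome richest in KRAB zinc finger genes, held 0.747% and 0.468% against input, and 2.41% and 1.79% against IgG.

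The largest differences between the input lists were lower shares in shCtrl cells on chromosomes 8 (by -2.67 percentage points, 95% Newcombe interval -3.09 to -2.26), 17 (-0.59), 19 (-0.28) and 1 (-0.23), the last with an interval that includes 0. Shares were higher in shCtrl cells on chromosomes 5 (0.72 points), 4 (0.50), 11 (0.46) and 6 (0.38). Of these 8 differences only those of chromosomes 19, 1 and 5 had the same sign against IgG. Over all 23 chromosomes the sign was the same with both controls in 12, and on 8 of these both intervals excluded 0. Of these, chromosomes 13, 14, 15, 18, 21 and X had the higher share in shCtrl cells, and 19 and 22 in unmodified cells. Chromosome X held 0.0759% of the unmodified and 0.263% of the shCtrl input peaks, and 0.223% and 1.10% against IgG.

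**Figure D3:**
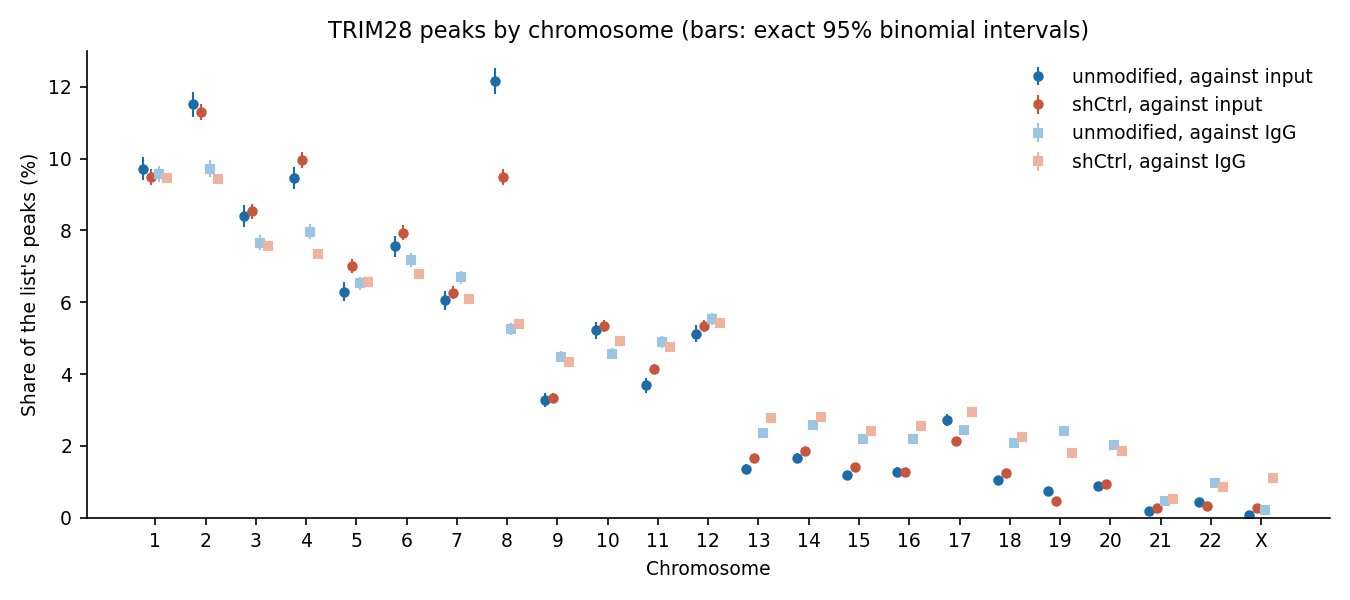
Share of each TRIM28 list on each chromosome (percent), with exact 95% intervals, circles for input and squares for IgG lists. On chromosome 8 both circles, at 12.1% and 9.48%, lie above both squares, at 5.25% and 5.39%, and on chromosomes 13 to 16 and 18 to X the circles lie below the squares of the same cells.

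The excess on chromosome 8 lay in a part of its long arm, and 2 other chromosomes had a step of the same kind. These parts were chosen after the values were seen. From 70 Mb to the last gene of chromosome 8, unmodified input peaks numbered 44.0 per Mb, against 9.99 on the rest of the chromosome, and shCtrl input peaks 74.0 against 16.0. On the last 28.8 Mb before the last gene of chromosome 10 they numbered 24.5 against 9.64 in unmodified and 50.3 against 22.05 in shCtrl cells. From 45 Mb on chromosome 17 they numbered 16.9 against 5.51 and 28.3 against 9.31. The steps were thus present in both libraries, at ratios of 4.41 and 4.64 on chromosome 8, 2.55 and 2.28 on chromosome 10, and 3.07 and 3.04 on chromosome 17. Against IgG the ratios were 0.86, 0.77 and 0.84 in unmodified cells and 1.32, 1.07 and 1.44 in shCtrl cells.

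The step on chromosome 8 was not particular to TRIM28, and its size varied between lists. There the ratio against input was 5.97 for unmodified ARID1A, 8.32 for unmodified H3K9me3, 3.68 for shCtrl ARID1A and 3.48 for shCtrl H3K9me3. It was 2.18 for shCtrl SETDB1 and 1.58 for shARID1A TRIM28. On chromosome 10 it was 2.78 and 5.55 for unmodified ARID1A and H3K9me3. For shCtrl ARID1A, H3K9me3 and SETDB1 it was 1.24, 1.63 and 1.14 there, and for shARID1A TRIM28 1.11. On chromosome 17 these lists ran from 1.305 for shARID1A TRIM28 to 5.85 for unmodified H3K9me3. HCT116 is known, as background, to carry extra copies of distal parts of 8q, 10q and 17q. Copy number was not measured here, and its part in these steps was not tested. The 3 parts held 4655 of the unmodified and 8087 of the shCtrl input peaks. There 7.86% of the unmodified peaks lay on a shCtrl peak, against 4.13% outside these parts and the gene-free stretches.

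**Figure D4:**
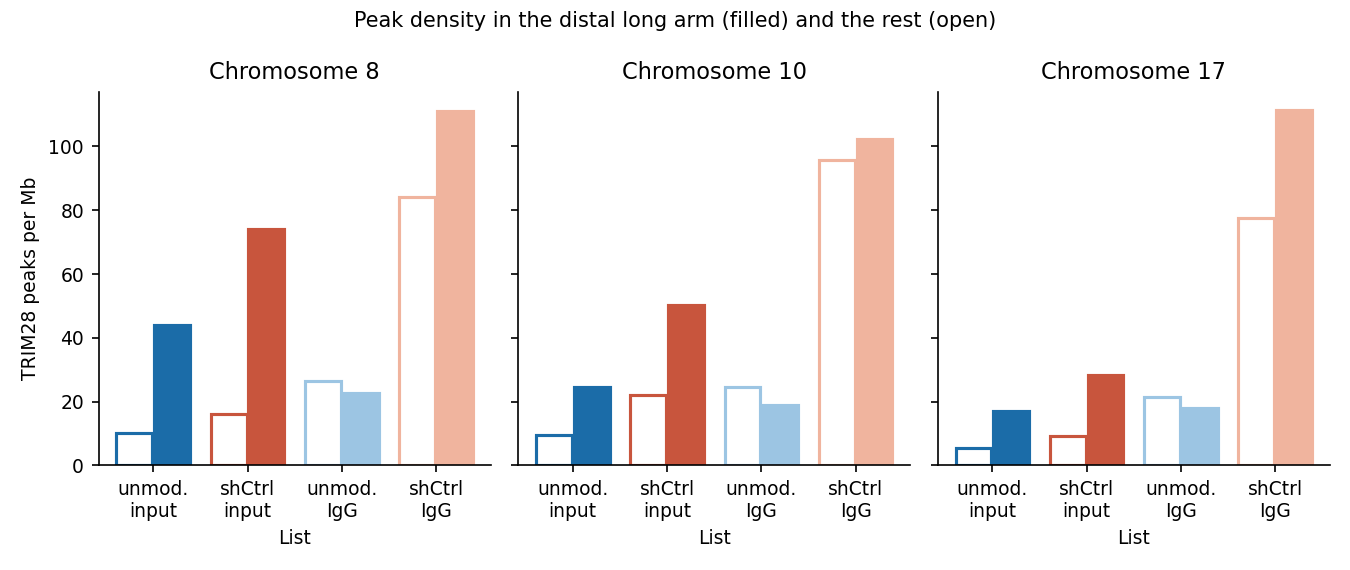
TRIM28 peaks per Mb (vertical axis) in the distal long arm (filled bars) and on the rest of the chromosome (open bars) for the 4 lists, 1 panel per chromosome. Filled bars are several times as high as open bars in the input lists of both libraries, and in the unmodified IgG list they are lower than the open bars.

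The 8 densest 100 kb bins of the shCtrl input list lay on the arms of chromosomes 8 and 10 described above, and those of the unmodified list partly there and partly on chromosomes 2 and 3 and at the centromere of chromosome 8. In unmodified cells the bins with the most input peaks held VTI1A on chromosome 10 (28 peaks, 9 in shCtrl) and the lncRNA genes CCAT1, CASC21 and CASC8 on chromosome 8 (28 and 8). VTI1A encodes a SNARE protein, and CCAT1 is a lncRNA gene known for high levels in colon cancer. Next came 2 neighbouring bins of chromosome 2 with no coding or named lncRNA gene (26 and 19 peaks, 24 and 10), a bin with CLDND1, GPR15 and CPOX (22 and 7), one in NSMCE2 (22 and 7), one in NUDCD1 (21 and 17), and a centromeric one of chromosome 8 (20 and 1). In shCtrl cells the densest bins held 25 peaks each: one with no coding gene, one with CNGB3, one with BAALC and FZD6, and one with NHLRC2, with 10, 9, 6 and 2 peaks in unmodified cells. The next held ADCY8 (23 peaks, 7 in unmodified), and 3 bins with 22 peaks held no coding gene, among them those of LINC01030 and LINC00977.

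Of the 2203 bins with at least 10 peaks in the 2 input lists together, 424 (19.2%) had a share of the list at least 2-fold higher in shCtrl cells and 351 (15.9%) one at least 2-fold higher in unmodified cells. Against IgG these were 23.9% and 12.6% of 18453 bins. Of the 424 bins, 162 were also higher in shCtrl cells against IgG and 18 were higher in unmodified cells there, and of the 351 bins, 84 kept their direction and 53 turned. Bins overlapping the gene-free stretches numbered 27 among the 351 and 0 among the 424. Against IgG they numbered 192 among the 2332 bins higher in unmodified cells and 17 among the 4413 higher in shCtrl cells. Their number among all compared bins was not counted, so these counts have no background beside them. Of the 8 largest differences towards shCtrl, those in bins with genes were at NHLRC2 (2 and 25 peaks), LINC00882 and DUBR (0 and 18), NECAB1 (1 and 19), EIF3H (1 and 18) and CCSER1 (0 and 14). The other bins, without coding or lncRNA genes, were 2 on chromosome 8 (0 and 18, 1 and 19) and 1 on chromosome 2 (0 and 15). The 8 towards unmodified cells were the bins of CCAT1, VTI1A, CLDND1 and NSMCE2 and the 2 bins of chromosome 2 named above, and 2 centromeric bins of chromosome 8 (20 and 1, 18 and 0).

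The share of genes with a peak rose with gene length. Of 19817 protein-coding genes, an input peak touched the body or its 1000 bp flanks in 28.5% in unmodified and 40.5% in shCtrl cells, and against IgG in 49.4% and 76.2%. The share rose from 3.43% of the 1982 shortest genes to 79.5% of the 1982 longest in unmodified cells, and from 4.84% to 90.6% in shCtrl cells. Gene families were therefore also compared by peaks per Mb of their merged bodies and flanks, which was 11.5 in unmodified and 25.5 in shCtrl cells over all protein-coding genes. A peak across an edge counts whole, which by construction raises this density for short genes. Of the 5657 coding genes with an input peak in unmodified cells, 4451 also had one in shCtrl cells. At least 1 peak of each of the 4 lists, not necessarily at the same place, was found in 3930 coding genes.

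Zinc finger genes, the best known targets of TRIM28, differed by place against input. On chromosome 19, 60 of 264 zinc finger genes (22.7%, 17.8% to 28.3%) had an input peak in unmodified cells and 68 (25.8%, 20.6% to 31.5%) in shCtrl cells, below the share of all coding genes in both. Per Mb they held 10.5 peaks in each library, 0.91 times the level of all coding genes in unmodified and 0.41 times in shCtrl cells. Both values lay above chromosome 19 as a whole, which held 4.198 input peaks per Mb in unmodified and 5.631 in shCtrl cells. Against IgG these genes held 36.48 peaks per Mb in unmodified and 83.43 in shCtrl cells, and the whole chromosome 27.94 and 80.7. Input peaks of both libraries lay in 33 of the 60 with an unmodified one, against 4451 of 5657 over all coding genes. At least 1 peak of each of the 4 lists, not necessarily at the same place, was found in 32 zinc finger genes of chromosome 19. On other chromosomes 110 of 303 zinc finger genes (36.3%) had an input peak in unmodified and 150 (49.5%) in shCtrl cells, 1.61 and 1.14 times the density of all coding genes. Against IgG the density on chromosome 19 was 1.54 times that of all coding genes in unmodified and 0.88 times in shCtrl cells. On other chromosomes it was 1.49 and 1.22 times, so in unmodified cells the 2 groups were close with this control. The highest folds against input were in ZNF180 (5.01) and ZNF121 (3.60) in unmodified cells, and in ZNF226 and ZNF616 (3.38 each) in shCtrl cells.

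Genes of heterochromatin and of the ARID1A complex were covered to a degree that changed with the control. Of 29 heterochromatin genes, 11 (37.9%) had an input peak in unmodified cells and 11 in shCtrl cells, 7 of them in both. Per Mb they had 0.77 and 0.57 times the density of all coding genes against input, and 1.22 and 0.98 times against IgG. ATF7IP, the cofactor that stabilises SETDB1, held 5 unmodified and 11 shCtrl input peaks, with highest folds of 3.37 and 3.62. The TRIM28 and SETDB1 genes held no input peak in either library. The ARID1A gene held 2 in each, with highest folds of 2.43 and 2.98, none of them strong. Of 26 SWI/SNF subunit genes, 8 (30.8%) had a peak in unmodified and 14 (53.8%) in shCtrl cells. All 8 were among the 14, and over all coding genes 4451 of 5657 were shared in this way. The density of the SWI/SNF genes was 0.84 and 0.99 times that of all coding genes against input, and 1.35 and 1.05 times against IgG. ARID1B held 10 and 24 peaks, and ARID2, a subunit of the PBAF form, 1 and 8.

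Imprinted genes, known TRIM28 targets, lay near the level of all coding genes. Of 24 imprinted genes 8 (33.3%, against 28.5% and 40.5% of all coding genes) had an input peak in each library, at 1.05 and 0.86 times the density, and 5 of these were the same: PLAGL1, SGCE, INPP5F, KCNQ1 and KCNQ1OT1. KCNQ1 held the highest unmodified fold of the group, 3.60, and PLAGL1 the highest of shCtrl, 3.38. ZNF445, a zinc finger gene that acts with TRIM28 at imprinted regions, held 1 and 2 peaks, with folds of 2.62 and 2.96. Of 9 retroviral envelope genes, 0 had an input peak in unmodified and 3 (33.3%, 7.49% to 70.1%) in shCtrl cells, with ERVK13-1 highest at 2.98. The shCtrl density was 1.47 times that of all coding genes, and 9 genes are too few to set these shares apart from 28.5% and 40.5%.

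Clustered protocadherin genes, which share a common stretch of exons, had an input peak in 32 of 53 in unmodified and 37 of 53 in shCtrl cells, 1.55 and 1.16 times the density of all coding genes. Many of these genes overlap, so 1 peak can count for several. UGT1A and UGT2 genes, which encode enzymes of glucuronidation and overlap in the same way, had a peak in 5 of 19 (26.3%, 9.15% to 51.2%) in unmodified and 16 of 19 (84.2%, 60.4% to 96.6%) in shCtrl cells, 0.71 and 1.6 times that density. Against IgG the numbers were 12 and 16. NBPF genes, which lie in duplicated segments of chromosome 1 and whose reads may be shared between copies, had one in 7 of 14 and 12 of 14, with 1.81 and 1.71 times the density. Replication-dependent histone genes, which are short, had a peak in 7 of 70 (10%) in each library, below the share of all coding genes, but at 2.85 and 1.28 times their density. H3C3 alone had one in both.

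Colon and WNT genes stood at 2.42 times the density of all coding genes in unmodified and 1.3 times in shCtrl cells. A peak lay in 12 of 24 genes in each library. Of the 12 in unmodified cells 11 were shared, against 4451 of 5657 over all coding genes. Against IgG the group was at 1.12 and 1.06 times. RNF43, a ubiquitin ligase that removes WNT receptors from the cell surface, held 13 unmodified and 3 shCtrl input peaks, and 4 and 7 against IgG. TCF7L2, the main WNT transcription factor of the gut, held 12 and 9, and CDH17, an intestinal cadherin, 7 and 12. These genes lie in the dense parts of chromosomes 17, 10 and 8 described above, so the group's density cannot be told apart from theirs. The p53 target genes were at 0.30 times the density in unmodified and 0.82 times in shCtrl cells, with a peak in 3 and 8 of 25. Against IgG they were at 1.03 and 1.09 times. The MAGE, GAGE, PAGE, XAGE and SSX genes, which are expressed in germ cells and lie mostly on chromosome X, were at 0.28 and 0.21 times. They held 3.18 and 5.31 input peaks per Mb, above the 0.160 and 1.19 of chromosome X as a whole. These densities rest on few peaks, since only 3 and 5 of the 65 genes had one. The 3 in unmodified cells were the neighbouring genes GAGE12B, GAGE12C and GAGE12D.

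**Figure D5:**
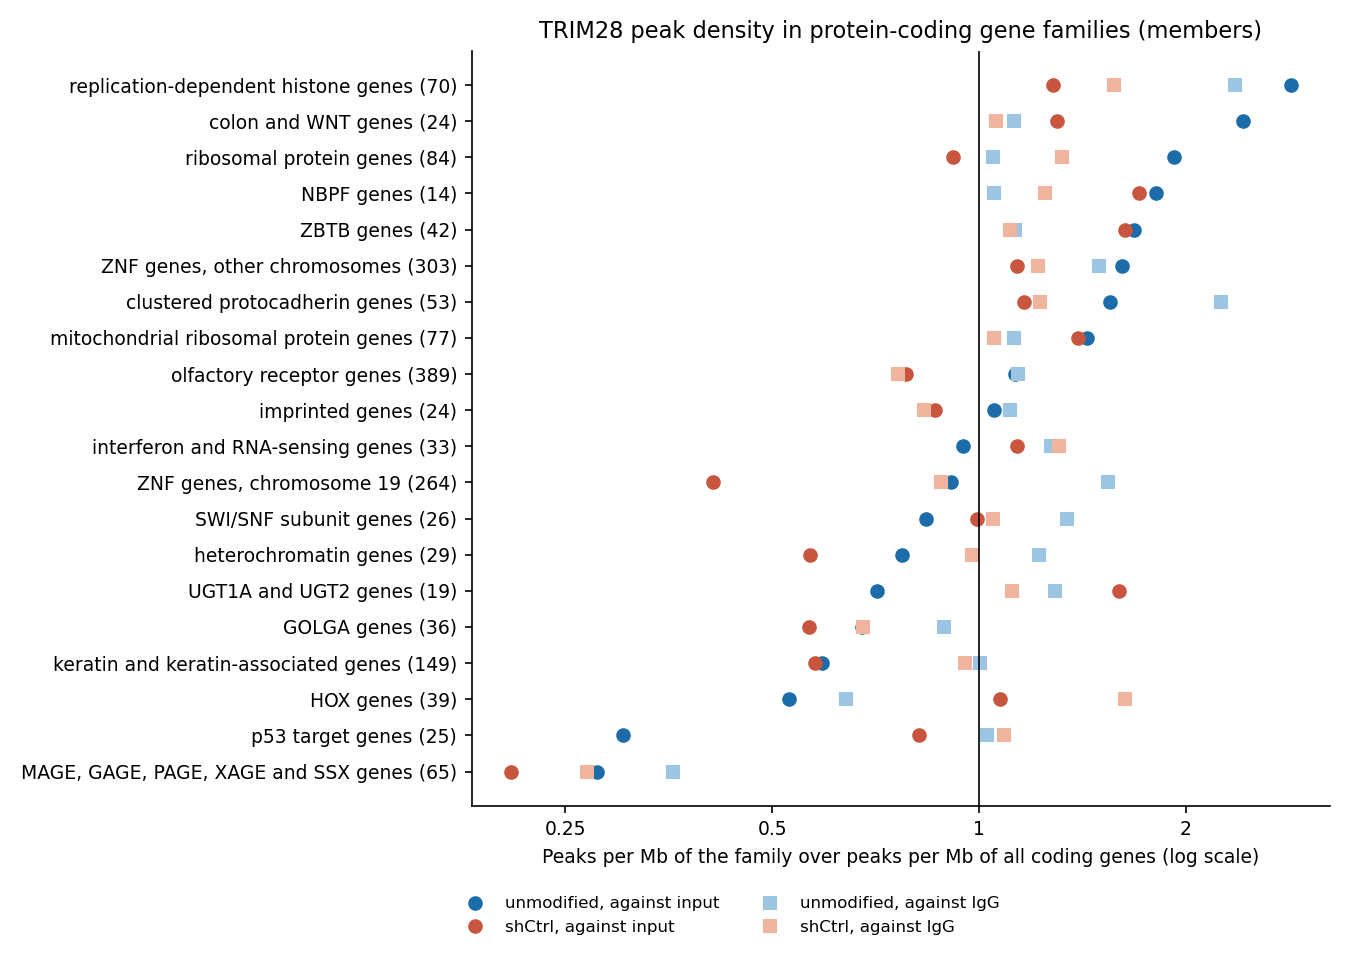
Peaks per Mb of each protein-coding gene family over the same for all coding genes (horizontal log scale), in the 4 lists, with the number of members in brackets. Unmodified input values run from 0.28 (MAGE and related genes) to 2.85 (histone genes), and the ratio of chromosome 19 zinc finger genes is 0.91 in unmodified and 0.41 in shCtrl cells.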

How the data were processed

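Cross-linked HCT116 chromatin was sheared and precipitated with an antibody against TRIM28, per the labels' protocols. The antibody product in the protocol differs from that in the sample characteristics, so the product is not settled here. The submitters' processing notes name MACS2 (2.2.7.1), Bowtie2 (2.2.5), FastQC (0.11.9), ChIPseeker and deepTools (3.5.1), and the builds GRCh38 and hg38. No source used here gives their options. The authors called each library separately; its control is known from the list's name alone. The deposited fold enrichment is a ratio of summit to background. The deposited −log10 p and −log10 q come from the same call, and the deposited peak score was not used. 

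Only chromosomes 1 to 22 and X entered. Overlap meant at least 1 bp. Shares have exact Clopper-Pearson 95% intervals and differences Newcombe intervals. Fragments at the summit were recovered from fold and p as whole numbers times a scale, within 0.0003, for at least 99.45% of the peaks of each list. Genes came from RefSeq GRCh38.p14 (58415 genes; 679 rows on unlocalized scaffolds were left out), extended by 1000 bp. That table gives no exons or repeats, so neither was used. Start sites came from the RefSeq start-site windows. Strong peaks had a q of at most 0.05. Bins were 100 kb.

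Genes were named by rule: the 12 genes with the highest lower input fold among peaks in all 4 lists; the 12 with the highest fold in each library among peaks of both its lists and neither list of the other; genes of strong peaks; the 8 bins with the most peaks or the largest differences; and leading family members. Members, gene lists and rules were chosen with earlier results of these data known. Overlap, gene coverage and fragment recovery were tested on simulated data. Python 3.11.15, NumPy 2.4.6, pandas 2.3.3 and SciPy 1.17.1 were used.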

Additional observations from a re-analysis of the deposited data

How the results depend on the processing

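The share of unmodified input peaks found in shCtrl cells (4.68%) was 7.89% with both lists against IgG, 5.97% among strong peaks (67 peaks), 1.02% among the top 10000 of each list, 2.45% with the longer list at the length of the shorter, 3.06% with 50% overlap, 11.8% with summits within 1000 bp, 3.08% among peaks in both control lists, 8.60% with shCtrl against IgG and 2.24% with unmodified against IgG. In the other direction (2.21%) the same settings gave 2.06%, 16.0% (25 peaks), 1.04%, 2.46%, 1.43%, 5.70%, 0.777%, 1.08% and 2.17%. Settings added after seeing the data gave 4.16% and 1.89% without the dense parts of chromosomes 8, 10 and 17, 4.67% and 2.16% without the gene-free stretches, and 2.21% and 1.37% for summits inside a peak of the other list. The bin correlation (0.54) was 0.43 against IgG, 0.88 in 1 Mb bins, 0.38 in 50 kb bins and 0.22 among the top 10000, and between 0.52 and 0.56 with other choices of bins.

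The log2 ratio of peak number, 1.10, was 1.96 against IgG and 2.0 with both control lists, and turned to -1.42 among strong peaks. That of covered length, 0.68, was 1.58, 1.56 and -1.31. The difference in median width, -92 bp, was -60 bp among the top 10000. The difference on chromosome 8, -2.67 points, was 0.14 against IgG, -0.77 among the top 10000 and -0.68 with both control lists. Against IgG the sign also turned on chromosomes 17 (0.49), 6 (-0.37), 11 (-0.13) and 4 (-0.61), among the top 10000 on 11 (-0.04) and 4 (-0.15), and with both control lists on 1 (0.00806). Of 54 family shares, 43 moved beyond their interval against IgG, all upward, 42 among the top 10000, 16 with both control lists and 9 without the gene extension, all downward. The cause of these changes was not tested. No paired analysis was possible because each group has 1 library. A median summit of 6 to 10 fragments limits every single peak.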

Other observations

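Short RNA genes had a peak in a small share of members, as short genes did in general. Their peaks per Mb, flanks included, varied with the family and the library, and peaks across an edge raise this density for short genes by construction. All coding genes held 11.5 input peaks per Mb in unmodified and 25.5 in shCtrl cells, against 22.3 and 23.6 for tRNA genes, 12.2 and 24.9 for miRNA genes, and 43.0 and 8.60 for snRNA and 5S rRNA genes. Of 429 tRNA genes 22 (5.13%) had an input peak in unmodified and 20 (4.66%) in shCtrl cells, and TRM-CAT5-2 on chromosome 6 alone had one in both. Of 1911 miRNA genes 44 (2.30%) and 95 (4.97%) had one, and MIR556, MIR548U, MIR2052, MIR3610 and MIR630 had one in both. Of 166 snRNA and 5S rRNA genes, 15 (9.04%, 5.15% to 14.5%) had one in unmodified and 3 (1.81%, 0.374% to 5.19%) in shCtrl cells, and against IgG 33 and 38. These genes have near-identical copies, so the copy that gave the reads is uncertain. Of 84 ribosomal protein genes 16 and 12 had an input peak, with RPS7, RPL31 and RPL34 in both, and of 1963 ribosomal protein pseudogenes 62 (3.16%) and 125 (6.37%), with 11 in both.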
